A study of Mus musculus with 12 samples.

Results

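At 7 weeks of age, the fallopian tubes of 1 transgenic female were set against those of 1 wildtype female, each measured on 2 repeat arrays. These 4 arrays of the 12 in the study were taken by their titles, which name the genotype, the tissue, the age and the repeat. The transgenic mouse was of the mogp-TAg strain on a C57BL6 background, written TG below. Its transgene encodes SV40 large T antigen and is driven by the promoter of Ovgp1, the gene of oviductal glycoprotein, in the secretory epithelium of the tube. The wildtype mouse, written WT, was a C57BL6 female without the transgene. The study holds 6 mice in all, 1 of each genotype at 7, 8 and 9 weeks, and by its title the strain serves to model high-grade serous cancer that starts in the tube. Labelled cRNA was hybridised to Illumina mouse BeadChips, which use 1 colour. Whether both repeats of a mouse came from a single RNA extract is not stated in the labels.

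The RB family of proteins holds back the E2F transcription factors, which drive the genes of DNA replication, and takes part in complexes that keep mitotic genes silent in resting cells. The p53 protein switches on genes of cell cycle arrest and cell death. Large T antigen binds and inactivates both. The lining of the normal mouse tube is made of secretory cells and of ciliated cells with motile cilia. It rests on a stroma of fibroblasts and smooth muscle, and mesothelium covers the tube from outside.

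Values are log2 signals, normalized over the 12 arrays so that each array has the same distribution. The lowest value was 6.17, and genes below 7.17 are called near the floor, where a signal is mostly background and a fold is understated. Detection values could not be matched to samples, so no gene is called absent. A gene is called higher or lower where both TG arrays lay at least 2-fold, a log2 difference of 1, beyond both WT arrays. With 1 mouse of each genotype, this rule describes these mice and is no test of the genotype. Beside it stands limma's moderated test on mouse means, in which the 2 arrays of a mouse were averaged. Its spread comes from the 8- and 9-week mice, with 2 residual degrees of freedom, and the single 7-week mice are assumed to vary like them. Differences are TG minus WT, and "rose" and "fell" are kept for genes with an adjusted p below 0.05 by that test. The median signal before normalization was 291.8 and 136.9 on the TG arrays and 245.4 and 186.5 on the WT arrays, repeat 1 and then repeat 2, within a range of 136.9 to 331.9 over all arrays. Ovgp1 itself, the secretory product that defines the tissue, was among the brightest genes at 14.53 and 13.89 in TG and 14.64 and 14.34 in WT. Foxj1, the master regulator of motile cilia, lay close to the floor at 7.30 and 6.97 in TG and 7.50 and 7.48 in WT, so ciliated cells were judged by their structural genes.

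Of 11229 genes, 215 were called higher (1.91%) and 106 lower (0.944%) in the TG tubes. The differences of the called genes reached 55.5-fold among those higher in TG and 19.0-fold among those lower, with medians of 3.38-fold and 2.76-fold. The TG arrays lay wholly above the WT arrays for 2570 genes (22.9%) and wholly below them for 2953 (26.3%). By limma 218 genes rose (1.94%) and 124 fell (1.1%), and 1979 genes had an unadjusted p below 0.05. Of the called genes, 161 of the 215 higher and 58 of the 106 lower passed limma as well. Of the 342 genes past limma, 68 no longer passed without TG repeat 2 and 17 without TG repeat 1. With the repeats compared number by number, 258 genes were higher and 178 lower by size. A limma fit with the repeat number as a block gave 542 higher and 510 lower, but it took the 12 arrays as units, with the mouse as a random term, so it also has more residual degrees of freedom than the fit on mouse means. Without TG repeat 1 the counts by size were 343 and 225, and limma gave 341 and 294. The other single arrays left out gave 173 (TG repeat 2), 164 (WT repeat 1) and 202 (WT repeat 2) lower genes by size, against the 106, and without WT repeat 2 limma gave 225 falls against 124. Without the TG mouse of 8 weeks, or that of 9 weeks, 0 genes rose and 0 fell, with 1568 genes at an unadjusted p below 0.05 in each fit. Without the WT mouse of either age 643 rose and 678 fell, with 1 residual degree of freedom in each of these fits. For the TG minus WT difference, the fits without a TG mouse are the same fit. Their spread comes from the WT mice of 8 and 9 weeks alone. The fits without a WT mouse are likewise the same, with the spread of the TG mice of those ages. Equal counts within each pair of fits are therefore not separate checks. The genes just inside the size threshold were Rad51ap1, whose nearest arrays were 1.005 apart, and Lrrc36 at -1.005. Those just outside it were Dlgap4 and Lmcd1 at -0.996.

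**Figure D1:**
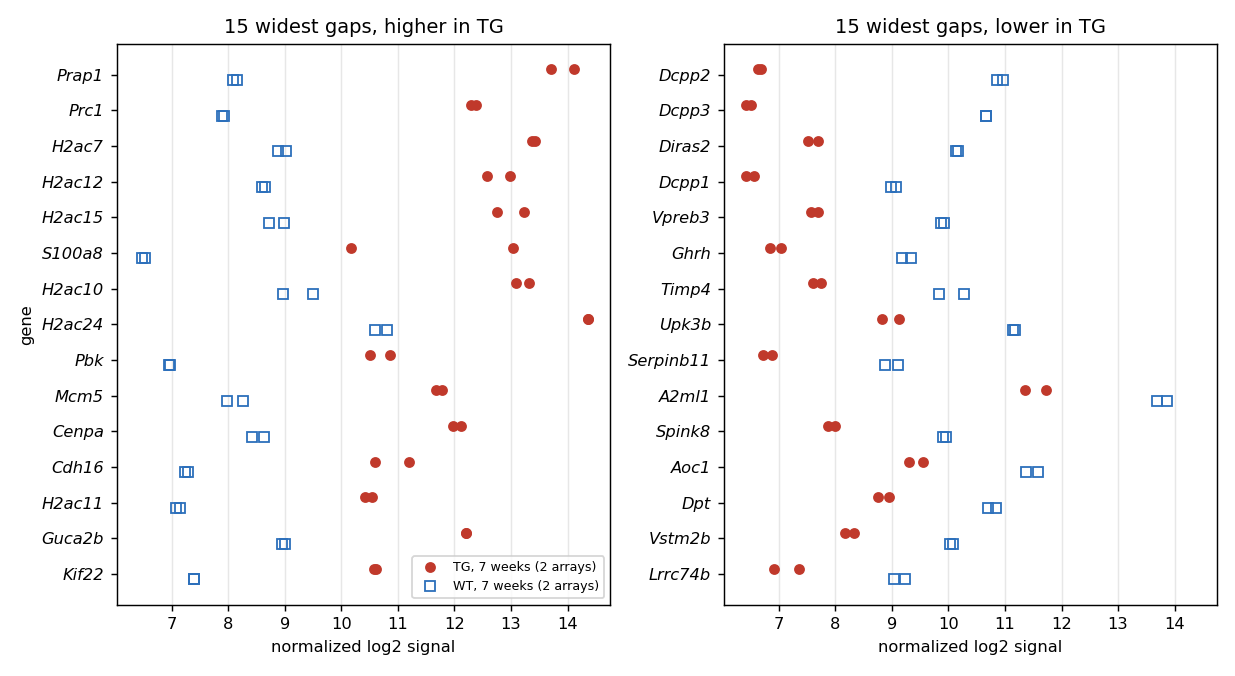
Normalized log2 signal (x axis) of the 15 genes called higher (left) and the 15 called lower (right) with the widest gap between the nearest TG and WT arrays at 7 weeks. Filled circles are the 2 arrays of the TG mouse and open squares the 2 of the WT mouse. S100a8 stands apart for the distance between its TG arrays, 10.16 and 13.03.

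Among the regulators of the cell cycle, E2f1, E2f2 and 2 kinase inhibitors rose. E2f1, an activator of replication genes, had signals of 9.98 and 10.12 in TG, against 7.46 and 7.51 in WT. It rose 5.90-fold (log2 2.56, SE 0.19, limma adjusted p = 0.0084), and its relative E2f2 rose 2.95-fold. E2f3 stayed near the floor in both genotypes, with a difference of 0.27 (adjusted p = 0.491). Among the RB family, Rbl1 rose 2.23-fold, while Rb1 differed by 0.46 (adjusted p = 0.223) and Rbl2 was near the floor in both mice. The cell cycle inhibitor Cdkn2c rose 4.93-fold, at 10.85 and 10.92 in TG against 8.66 and 8.51 in WT. Cdkn2a, which encodes another inhibitor of the same kinases and the ARF protein, rose 2.11-fold, with WT near the floor. Of the cyclins, Ccne2 rose 2.25-fold and Ccnd2 fell 2.28-fold, at 8.92 and 9.38 in TG against 10.56 and 10.11 in WT. Ccnd1, a D-type cyclin whose kinases inactivate RB, was 2.16-fold lower by size without passing limma (adjusted p = 0.061). Myc and Ccne1 were near the floor in both mice, with differences of 0.19 and 0.08.

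The TG arrays lay wholly above the WT arrays in 54 of 55 measured genes of DNA replication and E2F targets, against 22.9% of all genes. Of the 55, 33 were called higher and 0 lower, against 1.91% and 0.944% of all genes. By limma 39 rose and 0 fell, and the median difference was 1.51, against -0.026 over all genes. Mcm5, a subunit of the replicative helicase, had signals of 11.68 and 11.78 in TG, against 7.98 and 8.27 in WT, and rose 12.2-fold (log2 3.61, SE 0.36, adjusted p = 0.0132). Uhrf1, which carries DNA methylation over to new strands, rose 7.80-fold. Pclaf, a PCNA-binding protein of replication forks, rose 7.50-fold, with TG at 9.48 and 9.84 and WT near the floor at 6.72 and 6.79. In each of these genes both TG arrays lay far above both WT arrays. Pcna itself is an exception, at 8.58 and 7.53 in TG and 7.46 and 7.43 in WT, where TG repeat 1 alone was high (difference 0.61, adjusted p = 0.303). The histone methyltransferase Ezh2 rose 3.25-fold and Stmn1, a microtubule-destabilizing protein, rose 5.12-fold.

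The promoters of Mcm5 and Pclaf are shown because they hold the E2F motif and belong to the genes of this list with the widest gaps among those that do. They run from 250 bases before to 50 after the start site in RefSeq, build GRCm38.p6, where 9067 of the 11229 measured genes were matched by symbol. The motif searched was TTT, then a pair of bases that are each C or G, then CGC, on both strands, and capitals mark it. In Mcm5, at chr8:75109259-75109558 on the plus strand, 2 overlapping matches on opposite strands begin at positions -153 and -149 from the start. In Pclaf, at chr9:65890073-65890372 on the plus strand, the match begins at -5.
Mcm5: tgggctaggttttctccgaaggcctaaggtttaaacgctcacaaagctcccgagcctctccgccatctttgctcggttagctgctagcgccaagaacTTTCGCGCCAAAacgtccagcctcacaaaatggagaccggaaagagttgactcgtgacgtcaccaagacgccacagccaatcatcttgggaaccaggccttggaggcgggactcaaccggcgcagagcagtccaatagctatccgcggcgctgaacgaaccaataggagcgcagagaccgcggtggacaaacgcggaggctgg
Pclaf: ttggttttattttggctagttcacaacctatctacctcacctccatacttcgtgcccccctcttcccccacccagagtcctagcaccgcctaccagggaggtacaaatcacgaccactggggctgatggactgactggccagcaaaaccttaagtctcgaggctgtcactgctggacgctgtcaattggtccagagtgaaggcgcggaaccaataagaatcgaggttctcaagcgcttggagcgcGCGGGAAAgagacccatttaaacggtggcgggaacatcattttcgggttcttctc
Of the 33 replication genes called higher, 29 had a promoter in the table and 10 of these held the motif (34.5%). Of all genes called higher that had a promoter, 30 of 176 held it, against 0 of 83 of those called lower, 3.72% of measured genes and 2.32% of 27025 promoters. A match describes these letters and is not a measured site. As its name says, the list takes in E2F targets, and its members that were not called were not counted. Its share therefore does not link the motif to the calls.

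Mitotic genes were higher as well. Of 43 measured, 34 were called higher and 0 lower, against 1.91% and 0.944% of all genes. By limma 35 rose and 0 fell, and the median difference was 1.96. Prc1, which bundles the microtubules of the spindle midzone, had signals of 12.38 and 12.30 in TG, against 7.88 and 7.92 in WT, and rose 21.7-fold (log2 4.44, SE 0.37, adjusted p = 0.00884). The mitotic kinase Pbk rose 13.2-fold, with 10.51 and 10.86 in TG and 6.98 and 6.95, near the floor, in WT. Cenpa, the histone that marks centromeres, had 12.12 and 11.98 in TG and 8.42 and 8.64 in WT, and rose 11.5-fold. In all 3, both TG arrays lay far above both WT arrays. The chromosome-untangling enzyme Top2a rose 10.1-fold and the chromosome motor Kif22 rose 9.20-fold. Foxm1, a transcription factor of mitotic genes, rose 2.87-fold, at 8.26 and 8.38 in TG against 6.85 and 6.75 in WT. The summed signal of the list was 39503.0 and 37607.2 in TG and 6334.2 and 6473.7 in WT.

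The promoters of Prc1 and Cenpa carry the CHR motif, TTTGAA on either strand, which is known from promoters that are silenced in resting cells and used in mitosis. They are the mitotic genes with the widest gaps among those with the motif, which is in capitals. In Prc1, at chr7:80294201-80294500 on the plus strand, it begins at position -5 from the start, and in Cenpa, at chr5:30666636-30666935 on the plus strand, at 16.
Prc1: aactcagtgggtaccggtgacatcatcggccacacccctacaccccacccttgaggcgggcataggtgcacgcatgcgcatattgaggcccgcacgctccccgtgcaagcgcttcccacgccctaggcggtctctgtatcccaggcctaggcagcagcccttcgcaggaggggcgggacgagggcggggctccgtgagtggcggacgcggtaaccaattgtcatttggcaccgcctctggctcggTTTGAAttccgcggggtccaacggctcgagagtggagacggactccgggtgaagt
Cenpa: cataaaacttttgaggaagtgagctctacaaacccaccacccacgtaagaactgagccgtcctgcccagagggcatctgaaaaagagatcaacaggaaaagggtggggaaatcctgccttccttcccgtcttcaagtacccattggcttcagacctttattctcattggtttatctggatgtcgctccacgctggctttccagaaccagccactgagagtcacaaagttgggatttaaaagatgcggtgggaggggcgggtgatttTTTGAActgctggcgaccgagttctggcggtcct
The motif was in 25 of the 29 mitotic genes called higher that had a promoter (86.2%). It was in 28.4% of the genes called higher, 14.5% of those called lower, 12.2% of measured genes and 18.1% of all promoters. The replication genes called higher held it in 17.2%. Mitotic genes that were not called were not counted.

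Histone genes were also among the brightest differences, and they are described here after their values were seen. Of 47 measured histone genes, 10 were called higher and 4 lower, against 1.91% and 0.944% of all genes. The H2A cluster members led: 9 of 14 were called higher and 1 lower, while 2 of 11 H2B genes and 1 of 10 H4 genes were lower and 0 of 9 H3 genes called. H2ac7 had signals of 13.37 and 13.43 in TG, against 9.02 and 8.89 in WT, and rose 21.8-fold (log2 4.45, SE 0.36, adjusted p = 0.0084). H2ac12 and H2ac15 each rose 17.7-fold, H2ac10 15.7-fold, H2ac24 12.6-fold and H2ac11 10.4-fold. The H2A copies are nearly identical in sequence, so their probes may read each other's transcripts and the copies are uncertain one by one. RNA of these genes mostly ends without a poly(A) tail, and the arrays measured RNA primed from such tails.

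DNA repair genes were higher to a smaller extent. Of 26 measured, 7 were called higher and 0 lower, against 1.91% and 0.944% of all genes. By limma 9 rose, and the median was 0.55. In 19 the TG arrays lay wholly above the WT arrays and in 2 wholly below, against 22.9% and 26.3% of all genes. Rad54b and Rad54l, motors of homologous recombination, rose 7.71-fold and 4.33-fold, and Clspn, a checkpoint adaptor at replication forks, rose 5.62-fold. In all 3, WT was near the floor, Rad54b for example having 9.84 and 10.08 in TG and 6.97 and 7.06 in WT. Of 27 measured p53 targets, 0 were called in either direction, against 1.91% higher and 0.944% lower over all genes, shares that come to under 1 gene in a list of this size. By limma 0 passed, with 6 at an unadjusted p below 0.05, and the median was -0.09. The TG arrays lay wholly below the WT arrays in 11 and wholly above them in 4, against 26.3% and 22.9% of all genes. Cdkn1a, the p53-driven inhibitor of the cell cycle, had 9.64 and 9.65 in TG against 9.48 and 9.67 in WT, and the groups overlapped. Mdm2, which marks p53 for destruction, had 10.61 and 10.66 in TG against 10.84 and 10.69 in WT. The widest differences among the targets were -0.91 for Zmat3 and 0.72 for Apaf1 (adjusted p = 0.0949 and 0.109).

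**Figure D2:**
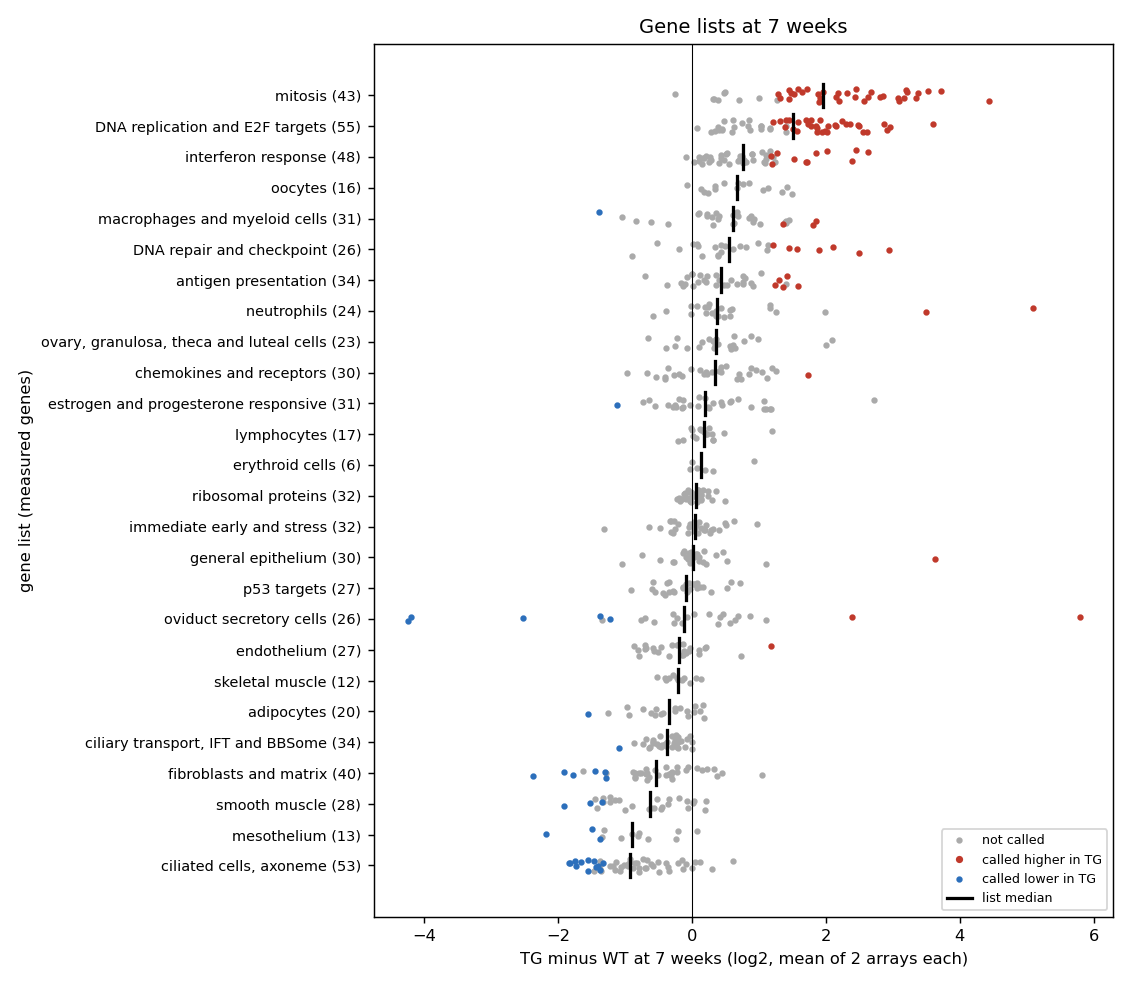
Difference between TG and WT at 7 weeks (x axis, log2, mean of 2 arrays each) for every measured gene of 26 lists, with the number measured in brackets. Points are genes, coloured by the size call, and bars are list medians. Mitosis (median 1.96) lies at the top and ciliated cells (-0.93) at the bottom.

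The secretory programme moved both ways. Of 26 measured genes 2 were called higher and 5 lower, against 1.91% and 0.944% of all genes. By limma 2 rose and 4 fell, and the median was -0.11, or 0.10 without TG repeat 2 and 0.072 without WT repeat 1. Without TG repeat 1, 4 were called higher. Prap1, a secreted proline-rich acidic protein, had the widest mean difference of any gene over the 4 arrays (without TG repeat 1 S100a8 was wider, at 6.52 against 6.00), with 13.71 and 14.11 in TG against 8.08 and 8.15 in WT, and rose 55.5-fold (log2 5.79, SE 0.68, adjusted p = 0.0186). The anion exchanger Slc26a4 rose 5.22-fold, with 8.60 and 9.56 in TG and 6.73 and 6.65, near the floor, in WT. In the other direction stood Dcpp2 and Dcpp3, secreted proteins of the oviduct that act on early embryos in the mouse. Dcpp2 had 6.63 and 6.70 in TG, near the floor, against 10.96 and 10.86 in WT, and fell 19.0-fold (log2 -4.25, SE 0.47, adjusted p = 0.0165). Dcpp3 fell 18.3-fold, and Dcpp1 was 5.78-fold lower without passing limma (adjusted p = 0.148). These 3 genes are close copies and their probes may not tell them apart. Ovgp1, whose promoter drives the transgene, differed by -0.28 (adjusted p = 0.496), and Pax8, a secretory lineage factor, by 0.47 (adjusted p = 0.305). Wfdc2, the secreted protein known as HE4 in the human disease, had 13.91 and 14.01 in TG and 13.27 and 13.26 in WT, a difference of 0.69 (adjusted p = 0.102).

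Of 30 general epithelial genes 1 was called higher, against 1.91% of all genes, and the median was 0.009. It was -0.024 under median scaling, -0.15 without TG repeat 1, where 2 were called higher and 1 lower, and 0.21 without TG repeat 2. The called gene was Cdh16, a cadherin of kidney and other tubular epithelia, at 11.20 and 10.59 in TG against 7.29 and 7.23 in WT, which rose 12.4-fold (log2 3.63, SE 0.16, adjusted p = 0.00614). Guca2b, which encodes the peptide uroguanylin, rose 9.39-fold, at 12.21 on both TG arrays against 9.01 and 8.95 in WT. Among secreted or membrane proteins that fell were the protease inhibitor A2ml1, 4.69-fold, the diamine oxidase Aoc1, 4.13-fold, and the serpin Serpinb11, 4.55-fold. A2ml1 was bright in both mice, at 11.73 and 11.36 in TG and 13.87 and 13.68 in WT. Diras2, a small GTPase, fell 5.84-fold, Vpreb3, known from B cell precursors, 4.78-fold, and Lrrc74b 3.99-fold. Ghrh (4.98-fold), Spink8 (3.98-fold) and Vstm2b (3.49-fold) were lower by size, with adjusted p of 0.0736, 0.116 and 0.073.

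Genes of motile cilia were lower. Of 53 measured axonemal genes, 12 were called lower and 0 higher, against 0.944% and 1.91% of all genes. By limma 16 fell and 0 rose, and the median was -0.93. The TG arrays lay wholly below the WT arrays in 44 of them, against 26.3% of all genes. Cdhr3, a cadherin of ciliated cells, had 9.95 and 9.69 in TG against 12.03 and 11.29 in WT, and fell 3.58-fold (log2 -1.84, SE 0.30, adjusted p = 0.0434). The outer dynein arm chain Dnaic1 fell 3.54-fold, at 7.88 and 7.48 in TG against 9.74 and 9.27 in WT. Dnaaf1, which assembles dynein arms, fell 3.37-fold. The summed signal of the list was 31981.4 and 25158.8 in TG and 59316.5 and 48728.0 in WT, with no overlap. Without TG repeat 1 the number called lower was 25, and without WT repeat 2 it was 23. In bulk tissue, fewer cells of a type and less RNA per cell cannot be told apart. Of 34 ciliary transport genes the TG arrays lay wholly below the WT arrays in 24, with a median of -0.38, or -0.25 without TG repeat 2 or WT repeat 1. Of these 34, 1 was called lower, Dync2li1 (fell 2.12-fold), against 0.944% of all genes, and 0 under median scaling or on the deposited values. The X-box motif, searched on both strands as GT, any 2 bases, CC, any 3 bases, G, any base, AAC, was in 0 of the 7 axonemal genes called lower that had a promoter, against 2.71% of measured genes and 2.17% of all promoters. With 7 promoters and shares this low, a count of 0 does not show that the motif is lacking.

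Interferon genes were higher without most of them passing limma. Of 48 measured, 11 were called higher and 0 lower, against 1.91% and 0.944% of all genes. By limma 4 rose, and the median was 0.77. The TG arrays lay wholly above the WT arrays in 39, against 22.9% of all genes. Isg15, a ubiquitin-like protein induced by interferon, had 10.38 and 10.09 in TG against 7.84 on both WT arrays, and rose 5.26-fold (log2 2.39, SE 0.35, adjusted p = 0.0311). Ifit3, which binds viral RNA complexes, was 6.16-fold higher, at 11.48 and 11.98 in TG and 8.90 and 9.32 in WT (adjusted p = 0.0936). Oas2, a sensor enzyme of double-stranded RNA, was 5.46-fold higher (adjusted p = 0.0596). In each of these genes both TG arrays lay above both WT arrays. Leaving out TG repeat 2 gave 17 interferon genes called higher, against 11, and median scaling gave 8. Of 34 genes of antigen presentation 5 were called higher, against 1.91% of all genes, 0 lower and 1 rose, with a median of 0.44. The class I molecules H2-Q7 and H2-D1 were 3.00-fold and 2.68-fold higher, and their activator Nlrc5 2.56-fold (adjusted p = 0.11, 0.0831 and 0.084). Without TG repeat 2 the number called was 8, and under median scaling 3. Class I genes have near-identical copies, so their probes are uncertain one by one.

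The promoters of Isg15 and Ifit3, the interferon genes with the widest gaps among those with the motif, hold the interferon-stimulated response element in the form GAAA, any 2 bases, GAAA on either strand, in capitals. In Isg15, at chr4:156200769-156201068 on the minus strand, 3 overlapping matches begin at positions -78, -72 and -66 from the start. In Ifit3, at chr19:34583279-34583578 on the plus strand, they begin at -156 and -122.
Isg15: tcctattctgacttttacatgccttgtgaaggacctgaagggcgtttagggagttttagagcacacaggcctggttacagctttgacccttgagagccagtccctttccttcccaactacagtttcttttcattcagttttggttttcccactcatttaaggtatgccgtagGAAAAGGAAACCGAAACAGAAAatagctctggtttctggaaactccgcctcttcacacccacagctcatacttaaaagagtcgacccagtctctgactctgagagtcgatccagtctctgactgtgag
Ifit3: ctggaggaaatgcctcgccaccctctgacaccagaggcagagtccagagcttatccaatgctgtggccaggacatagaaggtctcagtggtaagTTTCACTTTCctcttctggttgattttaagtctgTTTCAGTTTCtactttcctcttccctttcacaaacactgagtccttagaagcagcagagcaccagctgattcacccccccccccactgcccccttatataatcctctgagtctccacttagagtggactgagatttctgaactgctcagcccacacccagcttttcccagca
Of the 9 interferon genes called higher that had a promoter, 6 held the motif (66.7%), against 8.52% of genes called higher, 3.61% of those called lower, 3.19% of measured genes and 3.49% of all promoters. The list was made of interferon response genes, and its members that were not called were not counted. Its share therefore does not link the motif to the calls.

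Among macrophage genes the TG arrays lay wholly above the WT arrays in 22 of 31, against 22.9% of all genes. Of these 31, 3 were called higher and 1 lower, against 1.91% and 0.944% of all genes, 5 rose and 2 fell, with a median of 0.62 at 7 weeks, 0.24 at 8 weeks and -0.034 at 9 weeks. C1qa, a chain of the complement component that macrophages make, had 9.51 and 9.36 in TG against 7.99 and 8.17 in WT, and rose 2.57-fold. Ms4a6d rose 3.60-fold and Ms4a7 was 3.49-fold higher (adjusted p = 0.0846). Clec10a, a lectin of macrophages and dendritic cells, fell 2.61-fold. Without WT repeat 2 the number called higher was 8, without TG repeat 1 it was 7, and under median scaling 2. The lymphocyte list had 0 of 17 called and 10 near the floor in both mice. Its gene Ccl5 rose 2.28-fold with a WT level of 6.93 and 7.44. Of 30 chemokines and receptors 1 was called higher, against 1.91% of all genes, namely Ccl4, which was 3.32-fold higher (adjusted p = 0.0518). With TG repeat 1 left out that list had 4 called higher and without WT repeat 2 it had 3, and its median of 0.35 became 0.16 without TG repeat 2. Like the macrophage median, the chemokine median was lower in the older mice, at 0.23 at 8 weeks and -0.034 at 9 weeks. The interferon median was 0.77, 1.10 and 0.57 at 7, 8 and 9 weeks. Lists were not tested for a change with age.

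The lists of the outer and stromal layers of the tube had medians below 0. Their counts stand against 0.944% of all genes called lower and 1.91% called higher. Of 28 smooth muscle genes 3 were called lower, 0 higher, and 7 fell, with a median of -0.63. Des, the muscle intermediate filament desmin, had 9.27 and 9.73 in TG against 11.25 and 11.58 in WT, and fell 3.78-fold (log2 -1.92, SE 0.31, adjusted p = 0.0405). Lmod1, which nucleates actin in smooth muscle, fell 2.88-fold, and the contractile actin Actg2 was 2.55-fold lower (adjusted p = 0.115). Leaving out TG repeat 2 or WT repeat 1 gave 8 called lower, and leaving out TG repeat 1 or WT repeat 2 gave 5. Of 40 fibroblast and matrix genes 6 were called lower, 0 higher, and 4 fell, with a median of -0.53, and 10 were called lower without TG repeat 2. Timp4, an inhibitor of matrix proteases, fell 5.18-fold and Igfbp5, which binds insulin-like growth factors, fell 3.43-fold. The matrix protein Dpt was 3.78-fold lower (adjusted p = 0.0503). Of 13 mesothelial genes 3 were called lower, 0 higher, and 2 fell, with a median of -0.90. Upk3b had 8.82 and 9.12 in TG against 11.14 and 11.17 in WT and fell 4.55-fold, and the transcription factor Gata6 fell 2.60-fold. Without WT repeat 2 the number of mesothelial genes called lower was 7, and without TG repeat 1 it was 5. Wt1, a transcription factor of mesothelium and tubal stroma, had 10.17 and 10.61 in TG against 11.85 and 11.56 in WT (difference -1.32, adjusted p = 0.176). The summed mesothelial signal was 5463.4 and 5813.5 in TG and 12085.9 and 10871.0 in WT. Endothelial genes had a median of -0.19 with 1 of 27 called, the transcription factor Sox7, which rose 2.26-fold. Under median scaling 0 were called, and the median was -0.10 without TG repeat 1 and -0.41 without TG repeat 2.

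Other lists held no called gene. They were lymphocytes, ovary, oocytes, skeletal muscle, erythroid cells, immediate early and stress genes, ribosomal proteins and the p53 targets. These lists had 6 to 32 measured genes, and 1.91% of all genes were called higher and 0.944% lower. At such shares, lists this short can hold no called gene, so their genes are not shown to be unchanged. Without TG repeat 1, 8 ovarian and 8 oocyte genes would be called higher. Ribosomal proteins had a median of 0.066 over 32 genes (-0.069 under median scaling), and immediate early and stress genes 0.04 over 32. Estrogen- and progesterone-responsive genes had a median of 0.20 over 31, or 0.10 without TG repeat 2 and 0.12 without WT repeat 2. Ccnd1 was the 1 gene called lower, against 0.944% of all genes, and 0 were called higher. By limma 3 rose, and 5 were 2-fold brighter in TG repeat 2 than in TG repeat 1. With TG repeat 1 left out, 6 were called higher, against 0. Esr1, the estrogen receptor, had 10.84 and 10.59 in TG against 11.21 and 10.79 in WT, and Pgr, the progesterone receptor, had 7.64 and 8.01 in TG against 7.76 and 7.95 in WT. Both overlapped between the genotypes.

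**Figure D3:**
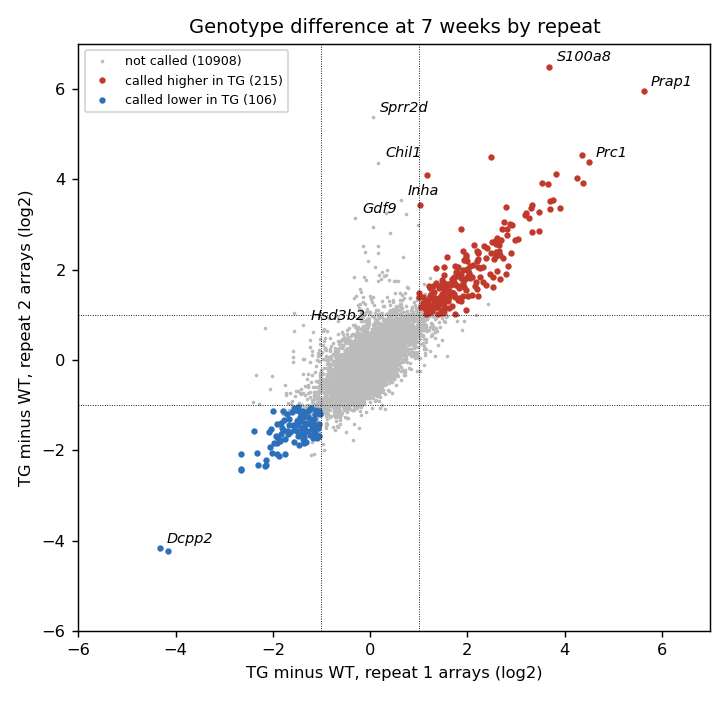
Genotype difference at 7 weeks in the repeat 1 arrays (x axis) and in the repeat 2 arrays (y axis), both TG minus WT on the log2 scale, with 1 point per gene. Red and blue points are the 215 genes called higher and the 106 called lower, and dotted lines mark 2-fold. Grey points high above the middle, such as Sprr2d, differ in repeat 2 alone.

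The repeats differed for some genes. Between repeat 2 and repeat 1 of the TG mouse, 97 genes were at least 2-fold higher (0.864%) and 144 lower (1.28%), the most of any mouse. In the WT mouse of 7 weeks these were 7 (0.0623%) and 58 (0.517%). At 8 weeks they were 26 (0.232%) and 74 (0.659%) in TG and 3 (0.0267%) and 33 (0.294%) in WT. At 9 weeks they were 18 (0.16%) and 84 (0.748%) in TG and 1 (0.00891%) and 33 (0.294%) in WT. The SD across genes of repeat 2 minus repeat 1 was 0.39 in the TG mouse and 0.29 in the WT mouse of 7 weeks. Of the 97 genes brighter in TG repeat 2, 4 were called higher, and for 49 TG repeat 2 alone exceeded WT by 2-fold. A group of them mark other cell types. Oocyte genes had a summed signal of 2727.5 in TG repeat 1 and 7545.7 in TG repeat 2, against 2962.7 and 1997.2 in WT, and 8 of 16 differed 2-fold between the TG repeats. Ovarian granulosa, theca and luteal genes summed to 9795.5 and 16545.9 in TG, against 10473.1 and 9930.2 in WT, with 8 of 23 brighter in TG repeat 2. Neutrophil genes summed to 58835.7 and 73305.6 in TG and 43833.0 and 47110.5 in WT, with 8 of 24 brighter in TG repeat 2 and 12 near the floor in both mice. By limma 3 oocyte, 3 ovarian and 3 neutrophil genes rose, among them Nlrp14 of oocytes and Hsd17b1 of granulosa cells. The part of such cells in the genotype difference was not tested.

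Single genes show the size of this. Gdf9, the growth factor secreted by oocytes, had 8.39 and 10.57 in TG against 8.69 and 7.42 in WT, so that TG repeat 1 lay between the WT arrays. Inha, the inhibin subunit of granulosa cells, had 8.05 and 10.76 in TG against 7.43 and 7.21 in WT, and its difference of 2.09 (adjusted p = 0.0235) became 0.74 without TG repeat 2. Sprr2d, a cornified envelope protein that estrogen induces in the mouse uterus, had 6.62 and 11.97 in TG against 6.55 and 6.60 in WT. It passed limma at a 6.59-fold rise (adjusted p = 0.0084), and the difference was 0.04 without TG repeat 2. Chil1, a secreted chitinase-like protein, had 6.75 and 10.90 in TG against 6.57 and 6.53 in WT, and its difference of 2.27 became 0.19 without that array. S100a8 and S100a9, the calprotectin subunits of neutrophils, were called higher on both TG arrays, S100a8 at 10.16 and 13.03 against 6.48 and 6.53 in WT (34.1-fold, adjusted p = 0.0886). S100a9 had 8.77 and 10.89 in TG and 6.29 and 6.39 in WT (11.3-fold, adjusted p = 0.0665). These are the only called genes among the 24 measured of the neutrophil list, against 1.91% of all genes called higher. Without TG repeat 1 the list had 7, in a setting that called 343 of all 11229 genes higher. The list median was 0.38 at 7 weeks, -0.032 at 8 weeks and -0.038 at 9 weeks.

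In the WT mouse the repeats parted on fat genes. Adipoq, the fat cell hormone adiponectin, had 8.99 and 8.74 in TG against 11.15 and 8.04 in WT, so TG lay between the WT arrays. Car3, abundant in fat, had 8.98 and 8.89 in TG and 10.55 and 7.84 in WT. The older WT mice parted the same way, with repeat 2 minus repeat 1 at -2.73 and -2.04 for Adipoq and -2.16 and -1.50 for Car3 at 8 and 9 weeks. The adipocyte list summed to 12971.3 and 13475.1 in TG against 23764.6 and 11582.6 in WT, and its median was -0.79 in the repeat 1 arrays and 0.13 in the repeat 2 arrays. Plin4, a lipid droplet protein, was the 1 called of its 20 measured genes, against 0.944% of all genes called lower. Plin4 had 8.01 and 8.04 in TG against 9.996 and 9.16 in WT, and fell 2.94-fold. The list had 5 called lower without WT repeat 2, 3 without TG repeat 1, 2 without TG repeat 2 and 0 on the deposited values. Hsd3b2, a steroid-making enzyme, had 12.25 and 11.46 in TG against 13.62 and 10.70 in WT.

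**Figure D4:**
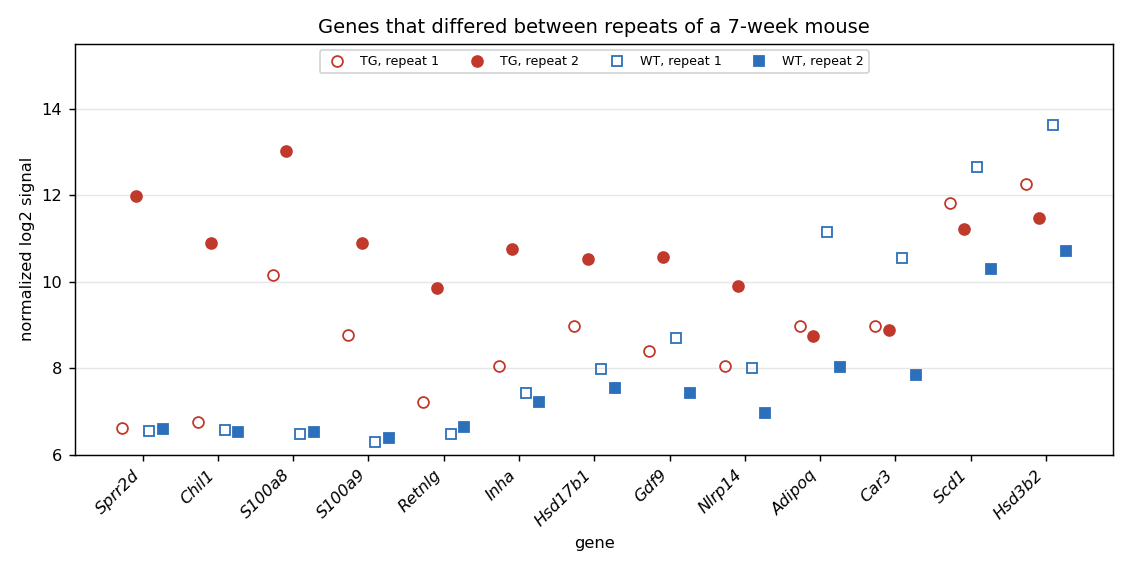
Normalized log2 signal (y axis) of 13 genes that differed between the repeats of a 7-week mouse, with red circles for TG and blue squares for WT, open for repeat 1 and filled for repeat 2. From Sprr2d to Nlrp14 the TG repeat 2 array stands above the other 3, and from Adipoq to Hsd3b2 the WT arrays lie on both sides of the TG arrays.

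The 7-week differences were set against those of the older mice, again 1 mouse of each genotype at each age. Of the 215 genes called higher at 7 weeks, 172 were also called at 8 weeks, where 2.38% of all genes were, and 157 at 9 weeks, where 2.29% were. Both ages called 147 of them and neither called 33. Their median differences were 1.76 at 7 weeks, 1.83 at 8 weeks and 1.93 at 9 weeks. Of the 106 called lower, 66 were called at 8 weeks, where 1.7% of all genes were, and 93 at 9 weeks, where 2.85% were. Their medians were -1.46 at 7 weeks, -1.53 at 8 weeks and -2.00 at 9 weeks. Prap1 differed by 5.79, 6.00 and 3.75 at 7, 8 and 9 weeks, and Dcpp2 by -4.25, -4.42 and -5.75. Among the 15 genes each way with the widest gaps between nearest arrays, S100a8 alone changed sign, at 5.09, -0.80 and 0.89. Outside these, S100a9 turned the same way, at 3.49, -0.83 and 0.40.

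Whether any 7-week difference departs from those at 8 and 9 weeks was tested in limma. No probe passed, 0 of 16664, with a lowest adjusted p of 0.169 and 624 probes at an unadjusted p below 0.05. No gene is therefore called particular to 7 weeks. In simulated data with 200 planted departures, recovery was 0% at a 2-fold size and 37% at a 4-fold size. With so little power, the test cannot show that 7 weeks matches the older ages. Without TG repeat 1 it gave 5 probes, with the repeat numbers as a block 1, without the WT mouse of 8 weeks 102 and without that of 9 weeks 86. The genes with the lowest p on the higher side were Sprr2d, Chil1, Serpina5, Retnlg and Aldh1a1. Serpina5, a serine protease inhibitor, had 8.22 and 10.26 in TG against 7.19 and 6.83 in WT at 7 weeks, and differences of -0.007 and -0.071 at 8 and 9 weeks. Aldh1a1, which makes retinoic acid, differed by 0.95 at 7 weeks and by -1.24 and -0.93 later, with TG at 8.99 and 10.29 and WT at 8.84 and 8.54 at 7 weeks. In each of these 5 genes TG repeat 2 was the brighter array. On the lower side were Cyp2j11, Erdr1, Pga5, B3gnt5 and Nde1. Erdr1 had 8.33 and 8.50 in TG against 9.38 and 9.64 in WT at 7 weeks, and differences of 0.75 and 1.48 at 8 and 9 weeks. Cyp2j11, a cytochrome of fatty acid metabolism, had 7.59 and 7.65 in TG against 8.54 and 9.65 in WT, and differences of 0.66 and 0.34 later.

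**Figure D5:**
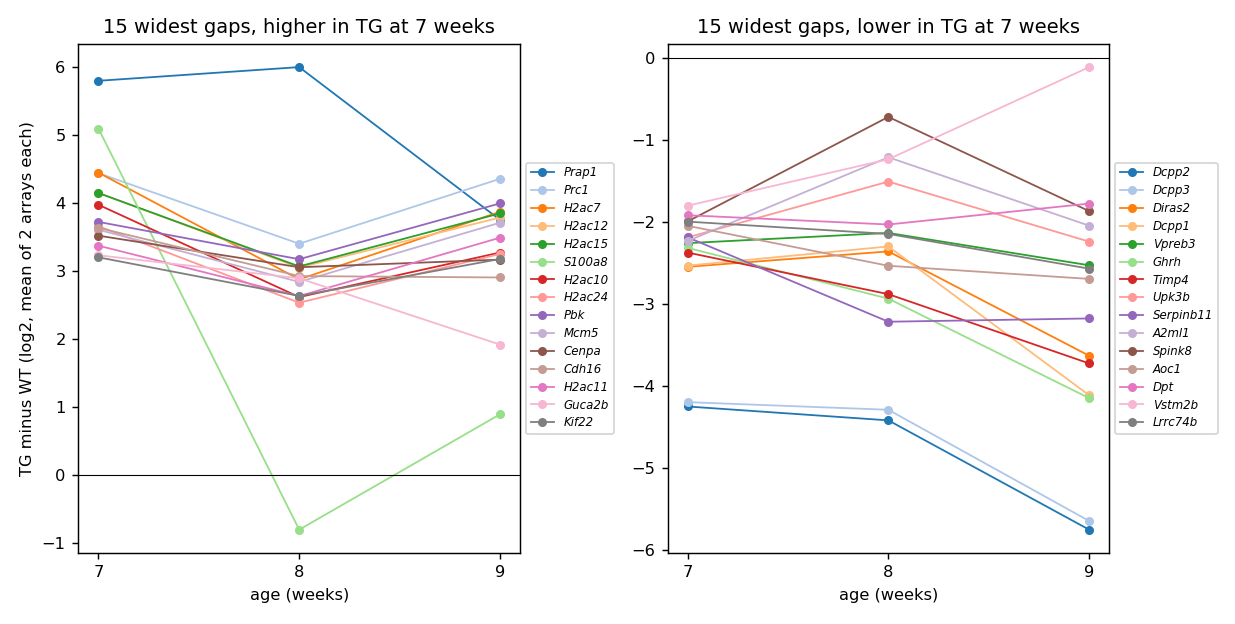
Difference between TG and WT (y axis, log2, mean of 2 arrays each) at 7, 8 and 9 weeks (x axis) for the 15 genes called higher (left) and the 15 called lower (right) with the widest gap between nearest arrays at 7 weeks, with 1 mouse of each genotype at each age. Among these 30 genes S100a8 is the 1 whose difference changes sign, at -0.80 at 8 weeks.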

How the data were processed

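RNA from the fallopian tubes of 6 mice was measured on 12 arrays, and arrays were grouped by their titles. Each value is a score per probe that the authors deposited after standardizing every array by itself, with GenomeStudio 1.6.0 named in the submitters' processing notes. Scale and centring were solved from the values, which turned 100% of the values of each array into signals with 1 decimal (tolerance 0.01 of the last digit). The medians of the deposited columns were 0.1902 and 0.0159 (TG) and 0.1063 and 0.067 (WT) at 7 weeks, repeat 1 then repeat 2. Background subtraction before deposit is not stated there. A total of 24 columns of another table match no sample and were not used.

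Of 25697 probes, 9033 were blank on all arrays and 16664 were analysed. Of these 15687 had 1 gene symbol, 0 several and 977 none, and they stood for 11229 genes. Where a gene had several probes, the brightest on average stood for it. Among 3115 such genes, 0 had probes called both ways. Signals were quantile-normalized without background subtraction and put on the log2 scale. limma 3.58.1 in R 4.3.3 (lmFit and eBayes, two-sided, Benjamini-Hochberg over all probes, threshold 0.05) was run on mouse means in 4 groups: TG and WT at 7 weeks, and TG and WT at 8 and 9 weeks. The solving of signals and the limma fit were tested on simulated data with known answers. Signals were recovered to at least 100% on 4 simulated arrays. For TG minus WT at 7 weeks, 200 probes were altered. The fit recovered 3% at a planted 2-fold size and 58% at a 4-fold size, with 1 false call. A gene that did not pass limma is therefore not shown to be unchanged. Where nothing says that arrays came from separate extracts, differences between repeats may be technical. Other steps used Python 3.11.15, numpy 2.4.6, pandas 2.3.3 and matplotlib 3.10.9.

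Same-numbered repeats deviated together: the correlation across genes was 0.422 between the 7-week mice and 0.113 to 0.652 over all 15 pairs of mice. The pairing comes from the labels' repeat numbers and this check, and fits with the repeat as a block are given where they change a count.

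The comparison, gene lists and naming rule were chosen with earlier results of these data known. The rule named the 15 called genes each way with the widest gap, up to 3 called genes each way per list (or the 2 widest differences where none was called), a fixed list of genes, the 5 lowest p each way for departure from the older mice, and the 5 widest differences between repeats in each 7-week mouse, leaving out clone names. Lists are described by counts and medians, with no set test. Alternatives were median scaling, normexp, the deposited values, a filter on dim probes, other sizes, other probes, and arrays or mice left out.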

Additional observations from a re-analysis of the deposited data

Results flagged for a closer look

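Akr1cl, an aldo-keto reductase gene, was higher in TG than in WT on both arrays at 7 weeks and lower in TG on both arrays at 8 and at 9 weeks. At 7 weeks it had 10.35 and 12.57 in TG against 9.17 and 8.47 in WT, a difference of 2.64 on the log2 scale (limma adjusted p = 0.227). At 8 weeks it had 6.93 and 6.95 in TG against 8.32 and 8.10 in WT, and at 9 weeks 7.07 and 7.11 in TG against 10.80 and 9.86 in WT. The TG repeats of 7 weeks differed by 2.23. The opposite signs of single ages, with 1 mouse of each genotype, were not tested one against another, and the departure of 7 weeks from both older ages had an unadjusted p of 0.00456 in limma and did not pass adjustment over all probes.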

How the results depend on the processing

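Fewer genes were higher and lower at a 4-fold size, 60 and 8, and more at 1.5-fold, 427 and 379, in place of 215 and 106 at 2-fold. Arrays left out in turn gave 238 to 343 higher and 164 to 225 lower by size, and 209 to 341 higher and 122 to 294 lower by limma. The repeats as a block gave 178 lower by size, and 542 higher and 510 lower by limma on the 12 arrays, with 1 probe departing at 7 weeks in place of 0. Normexp gave 223 lower by limma in place of 124. With 1 older mouse left out limma gave 0 to 643 higher, 0 to 678 lower and 0 to 102 departing probes, and arrays left out gave 0 to 5 departing probes; the estimate of spread then rests on 1 residual degree of freedom for the mice, and other causes were not tested. With an older mouse left out, the spread came from the older mice of the other genotype alone. Leaving out either older mouse of a genotype therefore gave the same counts of higher and lower genes. All other counts by size or limma lay within 1.5 times the value reported. Of the 123 named genes, 0 called ones changed sign. Leaving out an array moved the difference by over 1.5 times in 40, at most by 2.68 (Sprr2d without TG repeat 1), and other settings in 9. Leaving out an array moved 15 of 26 list medians by over 1.5 times, the oocyte median furthest, to 0.044 in place of 0.68 without TG repeat 2, and other settings moved 16. The medians of the adipocyte, epithelial, immediate early, secretory and ribosomal lists changed sign under 1 or more alternatives. Dim genes had no value with dim probes left out. Signals near the floor limit 86 of the genes called higher and 19 of those called lower.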

Other observations

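Of the genes called at 7 weeks, 114 of the 215 higher and 73 of the 106 lower belonged to none of the lists, and those named here were chosen after their values were seen. Hmgb2, a chromatin protein of dividing cells, had 11.50 and 10.95 in TG against 8.53 and 8.30 in WT, and rose 7.02-fold (limma adjusted p = 0.0084). Cuzd1, a secreted or membrane protein known from pancreas and uterus, had 9.24 and 9.38 in TG against 6.59 and 6.82, near the floor, in WT, and rose 6.06-fold. The water channel Aqp8 was 6.28-fold higher, at 9.39 and 9.66 in TG and 6.79 and 6.96 in WT (adjusted p = 0.174), and its differences were 0.65 at 8 weeks and 2.60 at 9 weeks. The retinol and alcohol dehydrogenase Adh7 rose 3.87-fold, and Igf2bp3, an RNA-binding protein of fetal tissues, rose 3.25-fold. Among genes lower in TG, Ttc29 and Daw1, both known from motile cilia, fell 3.51-fold and 2.62-fold, and Lbp, which binds bacterial lipopolysaccharide, was 2.89-fold lower (adjusted p = 0.0952).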
